A study of Mus musculus with 2 samples.

Results

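Genes of fat storage and fat burning were followed in back skin as a list of 40, chosen by name and made up of markers of the fat cell (adipocyte) and genes of fat synthesis, fat breakdown and fatty acid oxidation. A gene counted as measured when the array held at least 1 transcript cluster, a set of probes for a gene's transcripts, that carried its symbol alone. By that rule 37 of the 40 were measured, among 22180 genes on the array, and Cfd, Cpt1b and Ucp2 had no such cluster and were not analysed here. RNA came from male BALB/cAJcl mice aged 7 weeks. In the FGF18 group the back was depilated to start hair growth, and 6 days later FGF18, a fibroblast growth factor, was injected into the peritoneum at 100 µg, in saline with heparin at 5 µg/µl. After another 24 h the mice had total body γ-irradiation at 6 Gy, and the skin was taken 4 h later. The other group is labelled a saline control, and the labels do not spell out whether or when its mice were depilated, irradiated or given heparin, at what hair cycle time its skin was taken, or how many mice gave each sample. Each group is 1 Affymetrix Mouse Gene 2.0 ST array, so a difference below compares these 2 arrays, has no replicate check and carries no p-value.

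White adipocytes keep triglyceride in a lipid droplet coated by perilipins. In fed animals they take up fatty acids that lipoprotein lipase frees from circulating lipid, and make more from citrate. In fasting, lipases open the droplet, and fatty acids enter mitochondria through the carnitine shuttle to be cut down by β-oxidation, mainly in muscle, liver and brown fat. The nuclear receptors PPARγ and PPARα switch on storage and oxidation genes respectively. In mouse skin the fat layer lies between the dermis and a sheet of striated muscle, and it thickens during hair growth. Sebaceous glands, muscle, blood vessels, macrophages and epidermis also express many genes of the list.

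Values are deposited intensities on a linear scale, with a median over all clusters of 14.0 on the saline array and 13.8 on the FGF18 array. Each difference is the log2(intensity + 1) value on the FGF18 array less that on the saline array, a scale that understates the change of dim genes, and folds are taken on it too. Where a gene lay below the median of an array, a signal above background is not established, and no fold is given for it. Values of 2026 of 41345 clusters, or 4.90%, were exactly equal on both arrays. For scale, separate clusters of a gene, both at or above the median level, disagreed with an SD of 0.24 in their difference (319 genes), which covers probe sets and not variation between mice. In a bulk sample, fewer cells of a type and less RNA per cell cannot be told apart.

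Of the markers of white fat, Adipoq and Plin1 read modestly above the array medians, and Lep and Adig below them. The rest of those measured were brighter on both arrays. Cidec read 31.9 in saline and 38.1 after FGF18, Retn 73.7 and 50.1, and Fabp4 371 and 545. Adipoq, which encodes the hormone adiponectin, read 23.9 in saline and 22.1 after FGF18, and Plin1, the droplet coat protein of adipocytes, read 27.1 and 24.4. Lep, the gene of leptin, lay below the array median on both arrays at 8.78 and 8.20. Adig, an adipocyte gene, was also below on both, at 8.37 and 5.87. Ucp1, the uncoupling gene that defines brown fat, lay below the median on both arrays at 10.7 and 13.4. Of 9 brown fat markers 4 were below it on both arrays, namely Ucp1, Dio2, Lhx8 and Epsti1. The other 5 ranged from Cidea at -0.33 to Zic1 at 0.22.

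Members were as often higher as lower on the FGF18 array, but the larger differences were on the higher side. Of 37 members 18 were higher, 17 lower and 2 equal, with a median difference of 0.00, and over all 22180 genes 10970 were higher, 10094 lower and 1116 equal, also with a median of 0.00. At or above the median level of all genes (a mean of 4.15 over both arrays) lay 29 members. On the FGF18 array 14 of them exceeded their saline value and 14 fell short of it, and their median difference was 0.00. The 11090 genes at this level leaned to the higher side, by 6587 against 4209, and their median difference was 0.07. Of these 29, 4 were at least 1.5-fold higher, namely Plin4, Pnpla2, Acadl and Cd36, or 13.8%, beside 3.64% of the 11090 genes at that level. None was at least 1.5-fold lower, beside 4.63% of those genes. Only Plin4 was at least 2-fold higher, beside 0.379% of genes, and none was 2-fold lower, beside 1.65%. The count of 4 against 0 rests on small margins, and the members were chosen with earlier results of these data known. Cd36, at 0.60, stood just past the 1.5-fold line of 0.58, and Fabp4 at 0.55, Retn at -0.55, Cebpa at -0.54 and Acly at -0.52 stood just short of it. With the trend of difference on mean level subtracted (loess), 3 members were higher, Plin4, Pnpla2 and Acadl, and 3 lower, Retn, Cebpa and Acly, while 2.41% of genes were higher and 5.86% lower. Acadl was then only just past the line, at 0.587 beside 0.585. Without regard to size, 17 members were then higher and 20 lower.

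**Figure D1:**
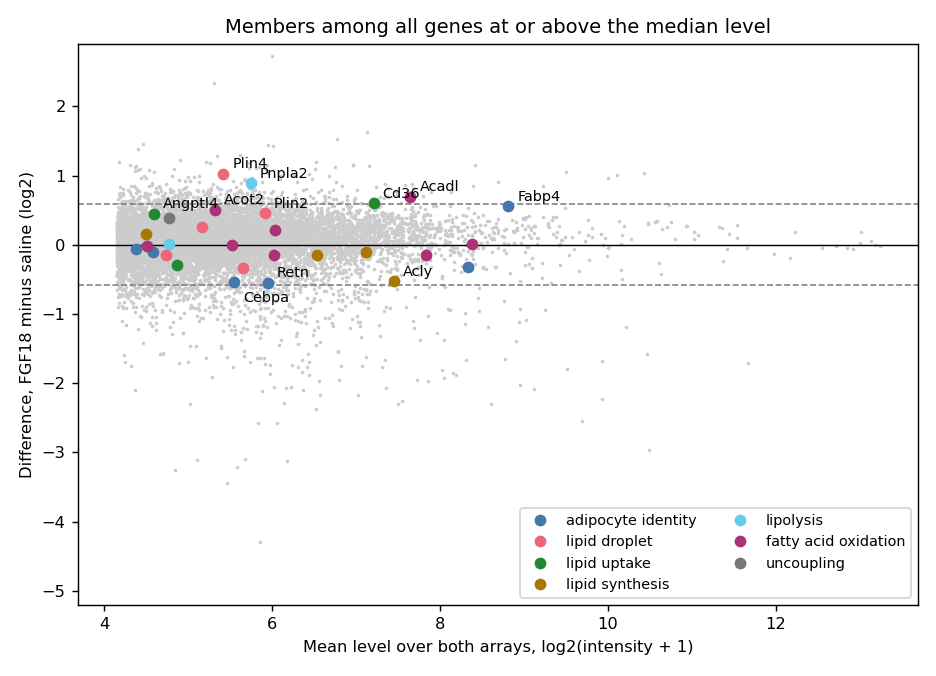
Each grey point is 1 of 11090 genes at or above the median level, with the mean of both arrays on the x axis and the difference FGF18 minus saline on the y axis, both in log2(intensity + 1). Coloured points are the 29 members at that level by role, and dashed lines mark 1.5-fold; Plin4, Pnpla2, Acadl and Cd36 lie above the upper line and no member lies below the lower.

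The member that differed most coats lipid droplets. Plin4, the perilipin of small nascent droplets in adipocytes and muscle, had an intensity of 29.0 in saline and of 60.0 after FGF18, a 2.03-fold higher value and a difference of 1.02. Among the 11090 genes only 0.352% had a higher difference. Over the 7 settings tried for values, its difference ran from 0.76 to 1.05. Next came Pnpla2, which encodes adipose triglyceride lipase, the enzyme that takes the first fatty acid off a triglyceride. It read 38.5 and 72.3, 1.86-fold higher, with 0.613% of genes above it. Acadl, the long-chain acyl-CoA dehydrogenase of β-oxidation, read 157 and 254, 1.62-fold higher, with 1.84% of genes above it. Cd36, a fatty acid transporter and scavenger receptor, read 119 and 181, 1.52-fold higher, with 3.27% of genes above it. All 4 genes lay above the array median on both arrays. With a pseudocount of 16, Cd36 was no longer past 1.5-fold and the other 3 were, beside 1.07% of genes.

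The 250 bases upstream of the start sites of these 4 genes are shown because they share a direction on the arrays. They were taken from RefSeq (build GRCm38.p6) and run 5′ to 3′ on the gene's strand. The Plin4 window is chr17:56109783-56110032, minus strand, that of Pnpla2 chr7:141454938-141455187, plus strand, that of Acadl chr1:66863310-66863559, minus strand and that of Cd36 chr5:17835897-17836146, minus strand. Capitals mark a match, with at most 2 mismatches, to the DR1 element bound by PPAR receptors, the half-site AGGTCA repeated in the same direction with 1 base between, on either strand.
Plin4: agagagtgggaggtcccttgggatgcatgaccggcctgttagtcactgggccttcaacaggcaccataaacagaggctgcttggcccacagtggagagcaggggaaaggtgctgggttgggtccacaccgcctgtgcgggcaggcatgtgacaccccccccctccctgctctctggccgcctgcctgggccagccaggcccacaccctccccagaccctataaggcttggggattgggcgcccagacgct
Pnpla2: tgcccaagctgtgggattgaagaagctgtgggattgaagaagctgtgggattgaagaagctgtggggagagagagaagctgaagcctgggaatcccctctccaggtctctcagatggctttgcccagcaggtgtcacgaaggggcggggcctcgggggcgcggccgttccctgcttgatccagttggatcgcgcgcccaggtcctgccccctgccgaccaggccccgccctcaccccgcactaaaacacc
Acadl: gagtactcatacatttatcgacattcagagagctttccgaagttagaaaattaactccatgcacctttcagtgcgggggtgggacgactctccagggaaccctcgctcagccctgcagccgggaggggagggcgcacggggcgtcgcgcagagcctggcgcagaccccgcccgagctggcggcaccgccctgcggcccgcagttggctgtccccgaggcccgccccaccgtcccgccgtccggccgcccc
Cd36: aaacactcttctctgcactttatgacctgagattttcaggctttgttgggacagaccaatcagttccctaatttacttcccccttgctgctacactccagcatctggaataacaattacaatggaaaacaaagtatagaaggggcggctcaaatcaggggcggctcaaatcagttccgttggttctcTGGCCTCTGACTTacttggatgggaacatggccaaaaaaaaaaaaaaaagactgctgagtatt
Only the Cd36 window of these 4 held such a match, 63 to 51 bases before the start site and on the opposite strand. RefSeq windows were found for 32 of the 40 listed genes, 37 windows in all because some genes have several start sites. A match was present in 3 of these 37 windows (8.11%), beside 3.24% of 32851 windows of all genes. The other windows were those of Plin2, with GGACCCCTGACCT, and Ucp3, with AGGTTTCAGGTCA. With 3 mismatches allowed, 14 of the 37 windows (37.8%) and 21.3% of all windows held a match. A glucocorticoid element, AGAACA and TGTTCT with 3 bases between and at most 2 mismatches, was found in none of the 37 windows and in 1.56% of all windows. The FOXO core GTAAACA, on either strand, was found in 1 window, at a start site of Lipe, and in 3.17% of all windows. These motifs and limits were chosen after the values were seen, and a match is a stretch of letters, not a shown binding site.

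**Figure D2:**
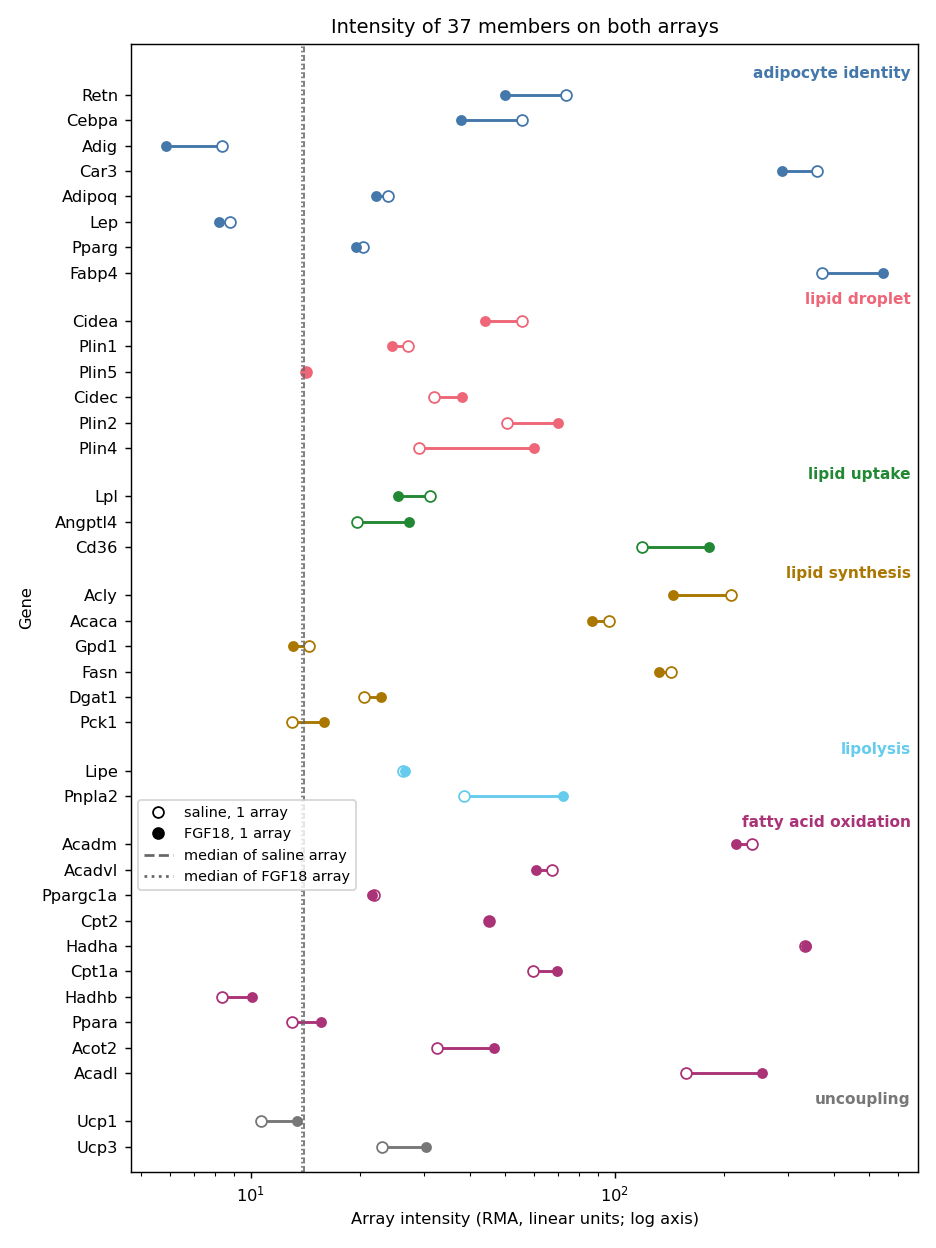
Intensity of each of the 37 measured members on the saline array (open circle) and the FGF18 array (filled circle), on a log axis, grouped by role and ordered within a role from the lowest to the highest difference. Dashed and dotted lines mark the array medians of 14.0 and 13.8; Plin4, Pnpla2 and Acadl show the widest gaps to the right, and Retn, Cebpa and Acly lie to the left.

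Genes of adipocyte identity were mostly lower on the FGF18 array. Of 8 measured, 7 were lower and 1 higher, beside 10094 of all 22180 genes lower and 10970 higher. At or above the median level 5 of 6 were lower, beside 4209 of 11090 genes. The median difference of the 8 was -0.21, within the SD of 0.24 between clusters. None reached 1.5-fold, beside 3.64% of genes at that level higher and 4.63% lower. Of the 7 lower genes, Adipoq and Pparg were also within that SD, and Lep and Adig lay below both array medians. Retn, which encodes the secreted protein resistin, read 73.7 in saline and 50.1 after FGF18, 1.46-fold lower. Cebpa, a transcription factor of adipocyte maturation that is also made in epidermis and sebaceous glands, read 55.6 and 37.9, also 1.46-fold lower. Of the 11090 genes, 94.7% had a higher difference than Retn and 94.6% a higher one than Cebpa. Car3, a carbonic anhydrase abundant in fat and muscle, was lower in each of its 2 clusters, which read 1353 and 1120 for the brighter and 95.2 and 73.4 for the other. Adipoq, with the values above, had a difference of -0.10. Pparg, the master regulator of adipocytes, read 20.4 and 19.4, a difference of -0.06. Fabp4, a fatty acid carrier of adipocytes, capillaries and macrophages, went the other way, with 371 in saline and 545 after FGF18, 1.47-fold higher. As a set, the 7 measured white fat markers summed to 544 in saline and 694 after FGF18, but without Fabp4, left out after its value was seen, the other 6 summed to 174 and 149, with 5 lower and 1 higher.

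Values of Fabp4 and Cd36, which capillaries and macrophages also express, stood beside mixed values of the markers of those cells. All 7 macrophage markers were higher on the FGF18 array, with a median of 0.49 and a summed intensity of 170 in saline and 226 after FGF18; the brighter of them, at the median level of all genes or over it, ranged from Csf1r at 0.04 to Lyz2 at 0.57. The 6 endothelial markers summed to 96.9 and 86.9, with 3 higher, 2 lower and 1 equal. Their median was 0.11 over all 6 and -0.43 over the 3 at or above the median level, which were Pecam1 at 0.21, Kdr at -0.43 and Cdh5 at -0.66. The part of either cell type in the values of Fabp4 and Cd36 was not tested.

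Droplet coat genes stood on both sides of zero. Of 6, 3 were higher, 2 lower and 1 equal, with a median of 0.12. Plin2, the perilipin found on droplets of most cells, read 50.5 in saline and 69.8 after FGF18, 1.37-fold higher. Plin1 was 1.10-fold lower. Plin5, the perilipin of oxidative tissue, which lies next to Plin4 in the genome, read exactly 14.2 on both arrays. Cidec, which fuses droplets in white adipocytes, read 31.9 and 38.1, 1.19-fold higher. Cidea, its relative in brown fat and sebaceous glands, read 55.7 and 44.0, 1.26-fold lower. The perilipins of the adipocyte, Plin1 and Plin4, stood on opposite sides of zero, but the difference of Plin1, -0.14, was within the SD of 0.24 between clusters.

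Among genes of lipid uptake, the transporter and the lipase differed in direction. Lpl, lipoprotein lipase, read 31.1 in saline and 25.3 after FGF18 as the mean of 2 clusters. The brighter cluster read 107 and 80.7, 1.32-fold lower, and the dimmer lay below the array median at 8.54 and 7.50. Angptl4, which encodes a secreted inhibitor of that enzyme and is a PPAR target induced by fasting, read 19.6 and 27.1, 1.36-fold higher. Cd36, as given above, was higher. The median of these 3 genes was 0.45.

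Genes of lipid synthesis had more lower than higher members. Of 6, 4 were lower and 2 higher, beside 10094 of all 22180 genes lower and 10970 higher. The median was -0.12, within the SD of 0.24 between clusters, as were the differences of Acaca, Fasn, Gpd1 and Dgat1. None reached 1.5-fold, beside 3.64% of genes at or above the median level higher and 4.63% lower. Acly, ATP citrate lyase, which makes cytosolic acetyl-CoA, read 208 in saline and 144 after FGF18, 1.44-fold lower. The next enzymes in the path differed less. Acaca, acetyl-CoA carboxylase, read 96.3 and 86.9, 1.11-fold lower, and Fasn, fatty acid synthase, read 143 and 132, 1.08-fold lower. Dgat1, which adds the last fatty acid of a triglyceride, read 20.4 and 22.8, 1.11-fold higher. Gpd1, a glycerol phosphate dehydrogenase, read 14.4 and 13.1 over 2 clusters, and Pck1, which makes glycerol phosphate precursors in fasting fat, read 13.0 and 15.9; each was below the median on 1 array.

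Lipolysis was represented by 2 lipases that differed in size of difference. Pnpla2 was 1.86-fold higher, as given above, whereas Lipe, hormone-sensitive lipase, which acts on diglycerides after it, read 26.2 in saline and 26.5 after FGF18, nearly equal values whose order turned with the trend subtracted. Other lipolysis genes, a list of 12 with 9 measured, had a median of 0.02, with 5 higher and 4 lower, and one of -0.01 with the trend subtracted and of -0.11 when the brightest cluster stood for each gene. At or above the median level 2 of these 7 genes were at least 1.5-fold lower (28.6%, beside 4.63% of all genes there), and none was higher by that much (beside 3.64%). Abhd5, the activator that adipose triglyceride lipase needs and that is also required for the epidermal barrier, read 138 and 86.7, 1.59-fold lower. Hcar2, a receptor that restrains lipolysis and is also found in keratinocytes and myeloid cells, read 30.8 and 20.1, 1.51-fold lower. At the other end stood Hilpda, a droplet protein that inhibits the same lipase, with 38.9 and 45.5. G0s2, another inhibitor of that lipase, read 22.3 and 22.7. The lipase gene and its activator gene were thus on opposite sides.

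Genes of fatty acid oxidation had a few higher members and several with little difference. Of 10 measured, 6 were higher, 3 lower and 1 equal, with a median of 0.11, and over the 8 at or above the median level the median was 0.01, beside 0.07 for all genes there. Acadl was the member past 1.5-fold. The other acyl-CoA dehydrogenases of the list did not share it. Acadm, for medium chains, read 239 in saline and 215 after FGF18, 1.11-fold lower, and Acadvl, for very long chains, read 67.1 and 60.7, 1.10-fold lower. Acot2, a mitochondrial thioesterase induced by fasting, read 32.6 and 46.7, 1.42-fold higher. Its near copy Acot1 read 33.7 on both arrays, and probes of such similar genes may take up each other's transcript, so the value of Acot2 is uncertain.

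The carnitine shuttle genes and Hadha differed by less than 1.5-fold. Cpt1a, the gate of the shuttle in most tissues, read 59.8 in saline and 69.2 after FGF18, 1.16-fold higher. Cpt2, the inner membrane enzyme, read exactly 45.1 on both arrays. Hadha, the α subunit of the trifunctional protein, read 333 and 335, an order that turned with the trend subtracted. Hadhb, its β subunit, lay below the median on both arrays at 8.33 and 10.1, so the pair could not be compared. These neighbours are read in opposite directions in the genome, and their upstream windows of 250 bases share 228 bases. Of the regulators, Ppargc1a, the coactivator that drives mitochondrial genes, read 21.8 and 21.6, and Ppara, the receptor of the fasting response, read 13.0 and 15.6, below the median in saline.

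Uncoupling proteins, which let protons or metabolites cross the inner mitochondrial membrane, were measured for Ucp1 and Ucp3. Ucp3, a muscle gene induced by fasting, read 23.0 in saline and 30.3 after FGF18, 1.30-fold higher. Ucp1 was below the median on both arrays, with the values given above.

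Many oxidation genes are abundant in the muscle sheet, whose markers were mostly lower. Of 14 skeletal muscle markers 9 were lower and 5 higher. Their median was -0.16, and they summed to 7061 in saline and 6540 after FGF18. They ranged from Casq1, a calcium store protein, at -1.14 to Myh1, a fast myosin, at 0.36. The sums lean on the brightest marker, Myh4, which read 1832 in saline and 1370 after FGF18. Acadl, Acot2 and Ucp3 were higher on the FGF18 array, and the part of muscle in their values was not tested.

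**Figure D3:**
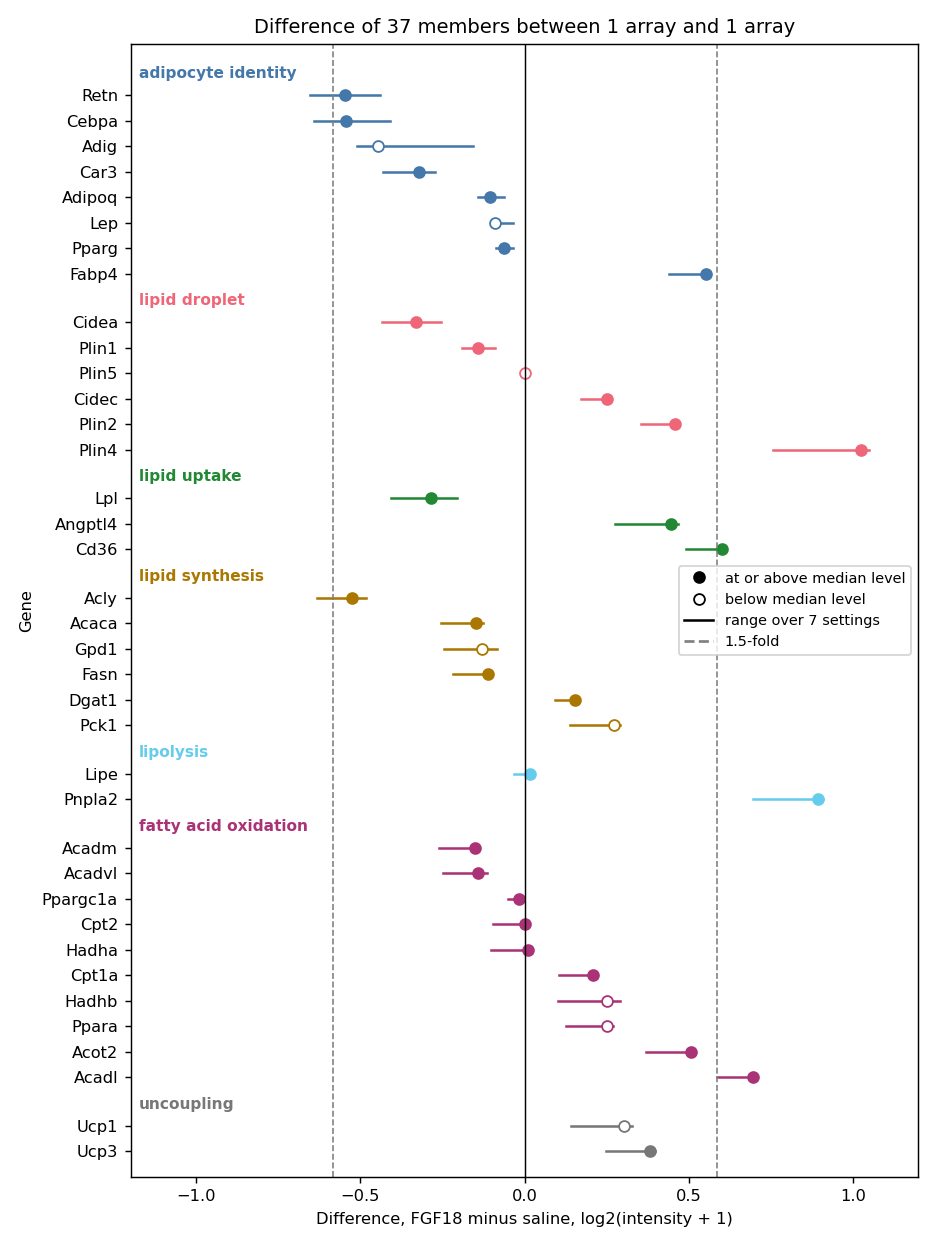
Difference of each measured member between the arrays, FGF18 minus saline in log2(intensity + 1), by role. Points are filled at or above the median level of all genes, bars span the lowest to highest value over the 7 settings for values, and dashed lines mark 1.5-fold. The bars of Plin4, Pnpla2 and Acadl stay to the right of the line, that of Acadl only just, and that of Cd36 crosses it.

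Members listed here as induced by fasting or by PPARα were more often higher than lower, across roles. These were 17 of the listed genes, 15 of them measured, and 10 were higher, 3 lower and 2 equal, with a median of 0.25. The other 22 measured members had 8 higher and 14 lower, with a median of -0.11, and at or above the median level 6 higher and 11 lower. The split is a choice made here, and Cd36 and Pck1, which could also be placed in the first set, are in the second. Both sets held 2 genes at least 1.5-fold higher, of 12 and 17 at or above the median level. They were Pnpla2 and Acadl in the first and Plin4 and Cd36 in the second. The shares were 16.7% and 11.8%, beside 3.64% of all genes there. None in either set was lower by that much, beside 4.63%. Angptl4, Plin2, Acot2 and Ucp3 were higher by folds from 1.30 to 1.42. Acadm, Acadvl and Ppargc1a were the lower ones, and Plin5 and Cpt2 were equal. The difference between the sets was not tested, since 1 array a group gives no spread.

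Other oxidation genes and PPAR targets outside the 40 stood on both sides of zero. Of 29 listed, 25 were measured, with 16 higher, 8 lower and 1 equal and a median of 0.08, or -0.01 with the trend subtracted. At or above the median level 4 of 19 were at least 1.5-fold higher (21.1%, beside 3.64% of all genes there) and none lower (beside 4.63%). Pdk4, the kinase that shuts glucose carbon out of mitochondria in fasting, read 78.4 in saline and 245 after FGF18, 3.09-fold higher. Vldlr, a receptor for lipid-rich particles, read 22.6 and 41.0, 1.78-fold higher. Acads, the short-chain acyl-CoA dehydrogenase, read 31.4 and 49.8, 1.57-fold higher, and Eci2, an enoyl-CoA isomerase, read 45.2 and 70.2, 1.54-fold higher. The lowest was Hadh, the hydroxyacyl-CoA dehydrogenase, with 229 and 198. Among acyl-CoA dehydrogenases, those for short and long chains were thus past 1.5-fold, and those for medium and very long chains were not.

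Fasting and glucocorticoid response genes, a list of 16 that shares Pdk4 and Txnip with the last one and Cebpd with the next, had 14 higher and 2 lower and a median of 0.41. At least 1.5-fold higher were 4 of the 15 at or above the median level (26.7%, beside 3.64% of all genes there), and none was lower by that much (beside 4.63%). Besides Pdk4 they were Fbxo32 and Trim63, ubiquitin ligases of muscle wasting, and Zbtb16, a glucocorticoid target. Fbxo32 read 63.4 and 184, Trim63 read 36.5 and 101, and Zbtb16 read 28.1 and 52.2. The lowest was Cebpd, a transcription factor of early adipocyte differentiation, with 19.8 and 17.3. This list, like the others, was drawn up with earlier results of these data known. Its share describes these genes and cannot show an excess over all genes, and Pdk4 counts in the share of the last list too. Food intake and body weight are not given in the labels, so no group can be called fasted.

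Other genes of lipid synthesis and adipocytes leaned the opposite way. Of 27 listed, 26 were measured, with 18 lower, 8 higher and a median of -0.13. At or above the median level 4 of 23 were at least 1.5-fold lower (17.4%, beside 4.63% of all genes there) and none higher (beside 3.64%). Dgat2, the second enzyme of triglyceride completion, read 154 in saline and 57.3 after FGF18, 2.65-fold lower. Thrsp, a gene induced with fat synthesis, read 30.2 and 14.2, 2.05-fold lower, but both are recurring intensities, held by 26 clusters of the saline array and 21 of the FGF18 array. Adipor2, an adiponectin receptor, read 119 and 67.1, 1.76-fold lower, and Me1, the malic enzyme that supplies NADPH for fat synthesis, read 168 and 99.0, 1.69-fold lower. The highest was Nrip1, a corepressor of oxidation genes, with 56.9 and 84.3. Dgat2 and Dgat1, which catalyse the same step, were on opposite sides of zero, but the difference of Dgat1, 0.15, was within the SD of 0.24 between clusters.

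Lower values of Dgat2, Me1, Abhd5, Acly and Cebpa stood beside lower values of the epidermis, where they are also expressed. All 8 markers of differentiated keratinocytes were lower, with a median of -2.15 and a summed intensity of 16310 in saline and 4034 after FGF18. They ranged from Krt1 at -2.96 to Lor at -0.95. Sebaceous gland markers showed no such shift, with 5 of 10 higher, 4 lower and 1 equal, a median of 0.01 (-0.03 with the trend subtracted and -0.20 with a filter at the 75th percentile of level) and sums of 611 and 572. The brighter of them, by the same limit, ranged from Cidea at -0.33 to Plin2 at 0.46, both of them members of the list. The part of epidermis in the values of these 5 genes was not tested.

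**Figure D4:**
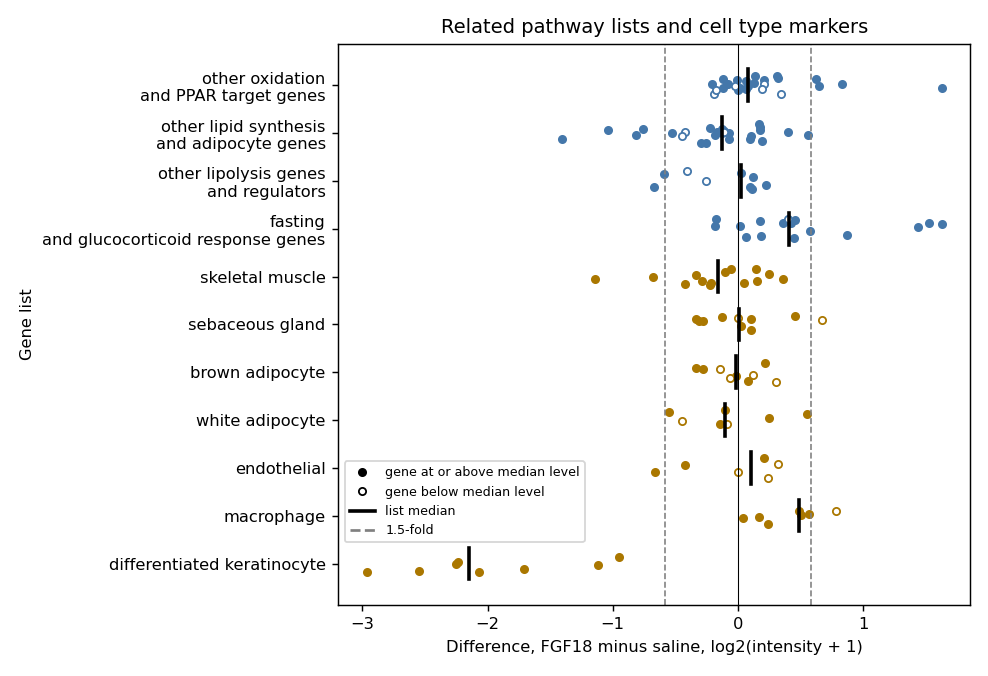
Difference of each measured gene of 4 related pathway lists (blue) and 7 marker lists of cell types (brown), FGF18 minus saline in log2(intensity + 1). Black bars are list medians, filled points lie at or above the median level, and dashed lines mark 1.5-fold; the fasting and glucocorticoid list lies mostly to the right, at a median of 0.41, and the markers of differentiated keratinocytes lie all to the left, at a median of -2.15.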

How the data were processed

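Total RNA from skin was measured on 2 arrays. Per the labels' protocols it was extracted with Trizol and labelled with the WT PLUS kit. The authors deposited intensities made with Affymetrix Expression Console and RMA, per the submitters' processing notes; the sources used here give no versions, and the linear scale was judged from the values. RMA corrects background, gives arrays a shared distribution and summarises probes.

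The platform annotation gave 1 symbol to 23521 of 41345 clusters, several to 1814 and none to 16010. Clusters with 1 symbol were used, and those of a symbol were averaged on log2(intensity + 1); 3 members had 2 clusters. All 40 clusters of members matched RefSeq (GRCm38.p6) by Entrez identifier with the same symbol. With 1 array per group there is no depth, replicate or test.

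All measured members are named. From related lists, genes past 1.5-fold at or above the median level and the highest and lowest there are named. Kdr, Myh4, Acot1 and G0s2, and the brown fat markers Dio2, Lhx8 and Epsti1, are also named and were picked after their values were seen. Members, roles and lists were chosen with earlier results of these data known. Alternatives were pseudocounts of 16 and none, other filters (none or the 75th percentile), a 2-fold line, median centring, loess (span 0.3), the brightest cluster, and clusters with several symbols. Steps were tested on simulated data. Python 3.11.15 and statsmodels 0.14.6 were used.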

Additional observations from a re-analysis of the deposited data

Results flagged for a closer look

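Cpt1b, the carnitine palmitoyltransferase of muscle, brown fat and heart, had no cluster of its own and was left out of the comparisons. A cluster that carries its symbol together with those of Chkb and Gm44502 read 49.4 in saline and 72.2 after FGF18, a 1.45-fold higher value in data the comparisons did not use. Which of the 3 genes this value comes from was not tested.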

How the results depend on the processing

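Plin4, Pnpla2 and Acadl were past 1.5-fold under every setting run at that line, and Cd36 under all but the pseudocount of 16 and loess subtraction. With loess subtraction Acadl was only just past it, at 0.587 beside 0.585. Of the 37 members, 33 had the same sign of difference over the 7 settings for values. Cpt2, Plin5, Hadha and Lipe, all within 0.11 of zero, did not. The pseudocount and median centring could not turn the order of a cluster's 2 intensities here, so loess subtraction was the main check on sign. At a 2-fold line 1 member was higher, and all genes counted 42 higher and 183 lower. Loess subtraction gave 3 members lower and 267 genes higher. The pseudocount of 16 gave 119 genes higher and 300 lower. No filter gave 920 lower, and a filter at the 75th percentile gave 206 higher and 321 lower. These 2 settings also changed the number of genes counted, from 11090 to 22180 and to 5545. As shares they gave 2.61% higher and 4.15% lower, and 3.72% and 5.79%, beside 3.64% and 4.63% in the main setting. The filter at the 75th percentile leaves fewer members in a role, and put the droplet median at 0.46 and the lipolysis median at 0.89. For the main counts and role medians, the other 95 comparisons with an alternative stayed close to the main setting. Counts moved by less than 1.5 times, and medians by less than the SD of 0.24 between clusters of a gene. Some could not move, since centring left every value as it was and role medians had no filter in the main setting. The filter at the median level for medians was added after the data were seen. Brightness limits Lep, Adig, Hadhb and Ucp1, which were below the median of both arrays. No paired analysis was possible because each group has 1 array.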

Other observations

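Some intensities recur exactly. On the saline array 14.2% of clusters, and on the FGF18 array 14.0%, held a value found in at least 1 other cluster of the same array, and among the 40 clusters of members 3 did on each array. Plin5 read a value held by 23 clusters in saline and by 21 after FGF18, and Thrsp read that same value after FGF18 and in saline a value held by 26 clusters. The brighter Lpl cluster shared its value with others, 7 clusters in all on each array, and Cpt2 shared its with 1 other.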
